A study of Mus musculus with 12 samples.

Results

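Genes of the immediate early and AP-1 group were followed through the calcium-induced differentiation of primary mouse keratinocytes: the Jun genes Jun, Junb and Jund, the Fos genes Fos, Fosb, Fosl1 and Fosl2, and Atf3, Egr1 and Ier3. The 10 genes were taken by symbol, and all 10 were found in at least 1 of the deposited files, which name 10751 genes in all. Keratinocytes came from the epidermis of newborn mice, were grown to passage 3 on 3T3 fibroblast feeders treated with mitomycin C in low-calcium medium, and were sampled undifferentiated at day 0 or differentiated by a calcium shift at day 4. Polyadenylated RNA was broken into fragments by sonication, and fragments carrying N6-methyladenosine (m6A), a methylated adenosine found inside mRNAs, were pulled down with an anti-m6A antibody. There were 12 libraries, 3 of input RNA and 3 of immunoprecipitated (IP) RNA on each day. Separate mice are not named for the replicates, so the authors' p-values measure only how far these libraries differ, and that spread may be technical.

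AP-1 is a dimer of a Jun protein with a Fos, Jun or ATF protein, joined by their basic leucine zippers, that binds DNA at TPA and cyclic AMP response elements. Fos proteins need a Jun partner, whereas Jun proteins can pair with themselves. Many genes of the group are immediate early genes: growth factors and stress switch them on within minutes without new protein synthesis, and their mRNAs are short-lived. In epidermis, AP-1 acts in proliferation, wound repair and the expression of late differentiation genes such as involucrin. m6A is known as a mark that reader proteins use to shorten or otherwise set the life of an mRNA.

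None of the files holds a value per library, so sequencing depth is unknown and the spread between replicates enters only through the authors' standard errors and p-values. The deposited expression table lists genes at an adjusted p under 0.05 by DESeq2. Its mean normalized count is averaged over both days, and the day means given below are those implied by that mean and the fold change, with both days weighted equally. A member or marker gene that is not in that table was either not called or not tested, and its level is then unknown here. All 10 of 10 keratinocyte markers checked were in the table, 5 higher and 5 lower at day 4, with mean normalized counts from 3145 (Trp63) to 209477 (Krt14). Of 9 fibroblast and feeder markers 2 were listed, and the authors' deposited table has both higher at day 4, Postn 12.6-fold at a mean of 305 and Pdgfra 3.31-fold at a mean of 50.9. Of 6 melanocyte markers 2 were listed as higher there, Mitf 3.13-fold at a mean of 128 and Kit at a mean of 4.74. Of 6 immune and endothelial markers, Cd68 had a log2 fold change of -1.92 at a mean of 159 and Pecam1 one of 2.32 at a mean of 5.30 in the authors' deposited table. The part of RNA from other cell types in the results below was not tested.

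The question put to the expression table was which members changed in level between the days. At day 4, Fosb, Jund and Junb were higher in the authors' deposited table (3 members), 2 members were lower (Fos and Fosl1) and 5 were not listed (Fosl2, Jun, Atf3, Egr1 and Ier3). Of all genes tested, 53.5% were called, 27.1% higher and 26.4% lower, so the members were listed about as often as genes in general. With at least a 2-fold change 3 members were called, beside 21.2% of all genes. At an adjusted p under 0.01, 4 were called beside 45.4%, and at an adjusted p under 0.05 with a mean of 100 or more, 4 beside 42.9%. In these bulk samples, fewer cells that express a gene and less of its RNA per cell cannot be told apart. The median log2 fold change of the 5 listed members was 0.45, beside 0.26 for all listed genes. The members differed in direction within the Fos genes, whereas both listed Jun genes were higher.

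Among the Jun genes, which supply the partner every AP-1 dimer needs, Jund had the clearest rise. Jund lies on chromosome 8 from 70697739 to 70700616 (mm10, plus strand) and encodes the Jun protein usually tied to slow growth. Its mean normalized count was 1137, with implied means of 783 at day 0 and 1491 at day 4. The authors' deposited table gives a log2 fold change of 0.93 (SE 0.15, DESeq2 adjusted p = 8.4e-09), a 1.90-fold rise with a 95% interval from 1.54 to 2.35. Junb, on chromosome 8 from 84976909 to 84978748 (minus strand), encodes a Jun protein that often restrains Jun activity. Its implied means were 2554 at day 0 and 3490 at day 4. The rise of Junb was small, with a log2 fold change of 0.45 (SE 0.17, DESeq2 adjusted p = 0.017) in the authors' deposited table, or 1.37-fold with an interval from 1.08 to 1.72. Jun itself, on chromosome 4 from 95049036 to 95052222 (minus strand), the founding member and the strongest activator of the family, was not listed.

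The Fos genes went apart. Fos, on chromosome 12 from 85473890 to 85477274 (plus strand), is the classic immediate early gene of serum stimulation. Its implied mean normalized counts were 4123 at day 0 and 1148 at day 4. The authors' deposited table puts the log2 fold change at -1.84 (SE 0.16, DESeq2 adjusted p = 6.7e-29), so Fos was 3.59-fold lower at day 4, with a 95% interval from 2.88 to 4.47. Fosl1, which encodes Fra-1, a Fos protein without a strong activation domain that is linked to migration and growth, lies on chromosome 19 from 5447698 to 5455938. It fell from an implied mean of 390 to 181, a log2 fold change of -1.11 (SE 0.23, DESeq2 adjusted p = 3.5e-06) in the authors' deposited table. Fosb, on chromosome 7 from 19302696 to 19310118 (minus strand), rose from an implied mean of 3.31 to 49.6. Its log2 fold change of 3.91 (SE 0.51, DESeq2 adjusted p = 1.1e-13) in the authors' deposited table has the widest interval of the 5, from 7.52-fold to 29.9-fold, at a mean normalized count of 26.5. Fosl2, which encodes Fra-2, on chromosome 5 from 32136472 to 32157840, was not listed.

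**Figure D1:**
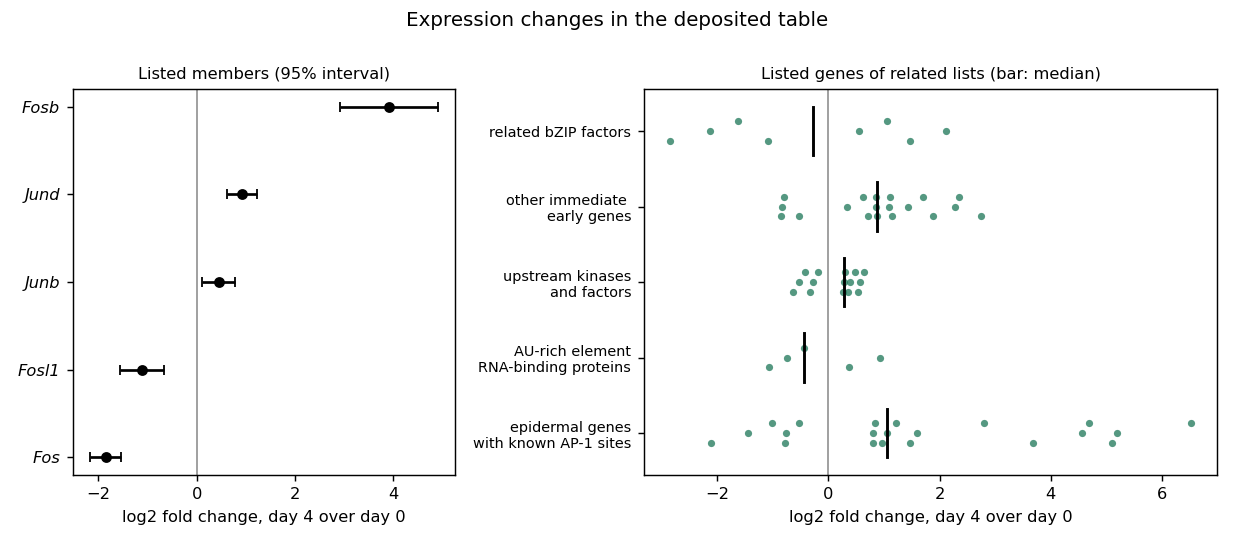
Left, log2 fold change of expression (day 4 over day 0) of the 5 listed members, with bars for the 95% interval computed from the authors' standard error. Right, the same quantity for each listed gene of 5 related lists, with a black bar at the list's median. Fos at -1.84 and Fosl1 at -1.11 lie below 0, and Junb, Jund and Fosb above it.

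Fos and Fosb sit at opposite ends of the listed members, so the DNA just before their annotated starts is shown, as RefSeq gives it for GRCm38.p6 (mm10). Each sequence is the 140 bases before the start, read in the direction of the gene. Capitals mark TGACG, the core shared by cyclic AMP response elements, and GCGGGGGCG, the sequence known for Egr1 binding, each searched on both strands.
Fos, chr12:85473750-85473889, plus strand: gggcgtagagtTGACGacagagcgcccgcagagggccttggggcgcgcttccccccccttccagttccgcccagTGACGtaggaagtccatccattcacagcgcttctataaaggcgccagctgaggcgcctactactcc
Fosb, chr7:19310046-19310185, minus strand: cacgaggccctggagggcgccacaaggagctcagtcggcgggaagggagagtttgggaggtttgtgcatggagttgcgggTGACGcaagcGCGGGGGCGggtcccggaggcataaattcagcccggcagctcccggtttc
Fos holds TGACG beginning 129 and 66 bases before its start, and Fosb holds it at 60 bases. Fosb also holds GCGGGGGCG at 50 bases, which Fos lacks in this window, and the marked motifs do not overlap. Over the 250 bases before the start, 4 of the 8 members found in the table (Atf3, Fos, Fosb and Junb) hold TGACG, as do 17.8% of 32851 promoters, and 2 (Fosb and Fosl2) hold GCGGGGGCG, as do 2.57%. The full palindrome TGACGTCA is in none of the 8 and in 1.55% of all promoters. These matches describe the letters, and factor binding was not measured.

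The peak lists ask where m6A lay in these transcripts on each day. Members had 25 peaks in 8 genes at day 0 and 21 peaks in 8 genes at day 4. Peaks were listed on both days for 7 members, at day 0 alone for Fosl1, at day 4 alone for Jund, and on neither day for Fosb. Of genes with a peak on either day, 79.2% had peaks on both, so 7 of the 9 members with a peak is close to the share over all genes. Overlap by at least 1 bp on the same strand joined 19 of 25 day 0 peaks and 19 of 21 day 4 peaks to a peak of the other day, against 70.2% and 78.9% of all peaks. In most members the highest-scoring peak lay nearer to the 3′ end of the gene than to its 5′ end, in 7 of 8 members on each day, the exceptions being Fosl1 at day 0 and Junb at day 4. That was so for 81.2% of 7038 genes at day 0 and 79.6% of 6631 at day 4, so the members are close to genes in general. Distances run along the genome with introns counted.

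**Figure D2:**
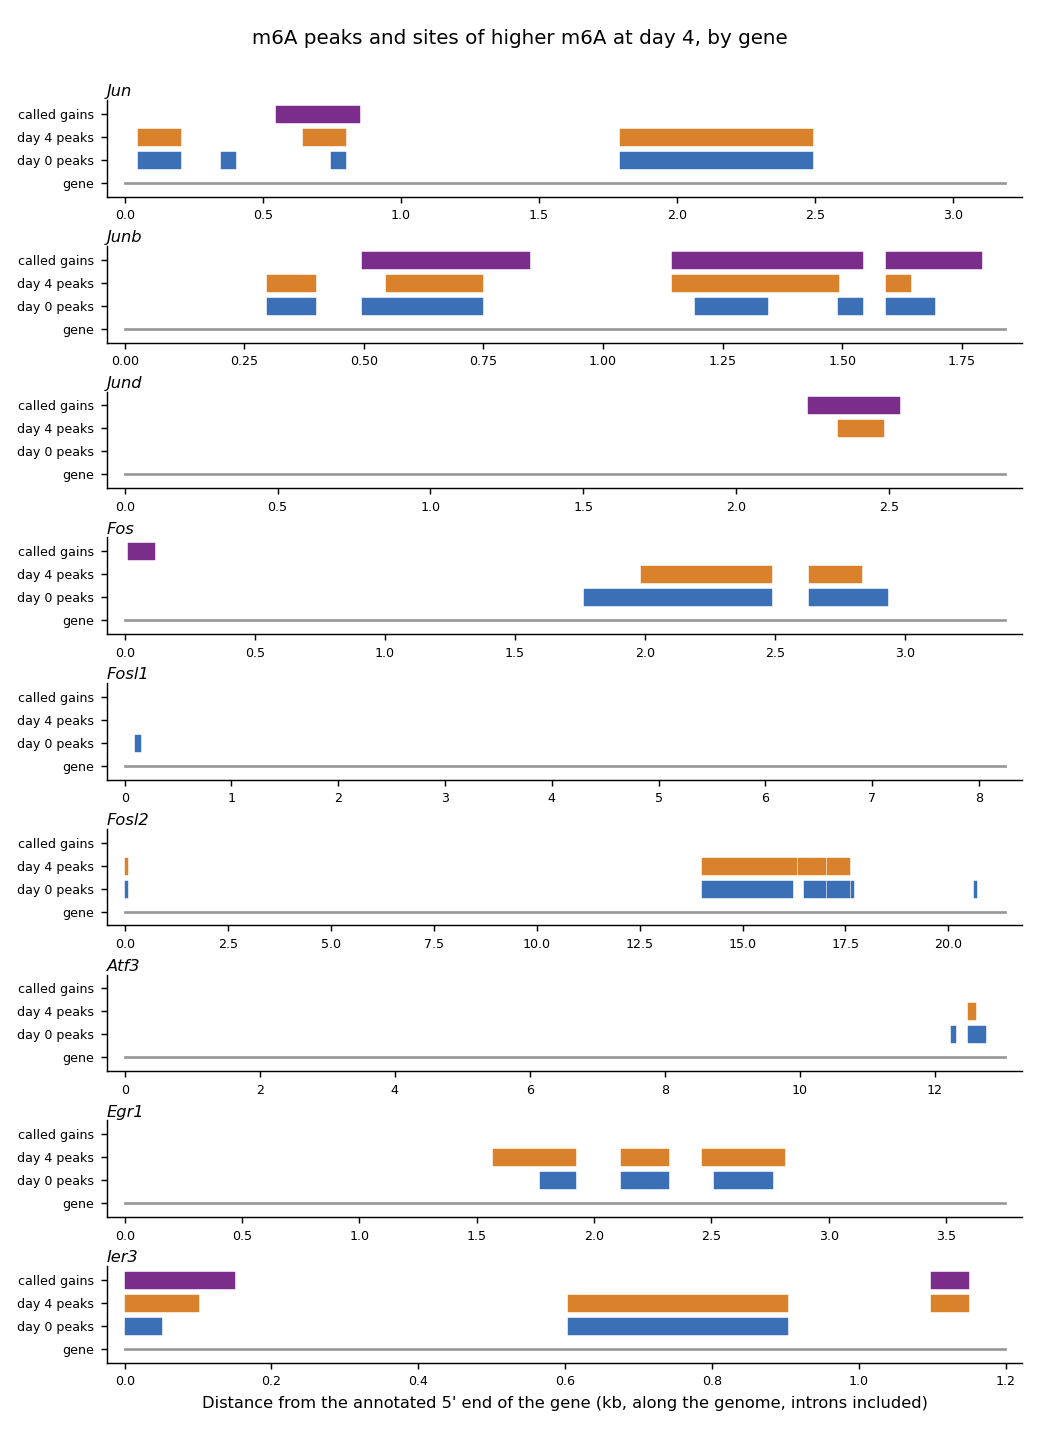
Position of day 0 peaks (blue), day 4 peaks (orange) and sites called as gaining m6A at day 4 (purple) along each of the 9 members with a peak, as distance from the annotated 5′ end in kb along the genome. Fosb has none and is not drawn. Jund has a peak in the day 4 row alone, and the purple site of Fos stands at its 5′ end, away from its peaks.

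Enrichment scores and peak p-values are the authors' own, and a common scale of the day 0 and day 4 lists was not stated, so scores are read within a list. Most member peaks were modest by score. The p-values ordered them otherwise. At day 0, peaks of Ier3 (186), Fosl2 (226) and Fos (336 and 376) ranked high among 19920 peaks, counted from the smallest p-value. Other member peaks ranked as low as 19555 (Fosl2). The median score of member peaks was 10.4 at day 0, where the whole list had 21.4, and 8.11 at day 4, where the whole list had 17.1. In each list 5 member peaks lay above the list's median. Fosl2 held the top-scoring member peak on both days. That peak ran from 32152971 to 32153467 at day 0, with a score of 192 that ranked 1485 of 19920, and from 32152822 to 32153467 at day 4, with a score of 195 that ranked 738 of 18423. The other Fosl2 peaks scored from 3.14 to 16.5 at day 0 (5 peaks) and from 6.59 to 18.0 at day 4 (3 peaks), and none of its sites was listed as changed.

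Jun was next at day 0, and at day 4 it came after Fosl2 and Jund. A peak of 697 bases in Jun, from 95049733 to 95050429, was listed at the same coordinates on both days, with a score of 141 (rank 2229) at day 0 and 46.1 (rank 4358) at day 4. Jun had 3 further peaks at day 0, with scores from 9.83 to 15.9, and 2 at day 4, at 5.04 and 6.13. Egr1, a zinc finger factor that growth signals induce together with Fos, lies on chromosome 18 from 34861207 to 34864956 and had 3 peaks on each day that overlapped one by one. Its peak scores were 20.1, 23.5 and 60.4 at day 0 and 8.11, 14.7 and 33.5 at day 4, from the 5′ side to the 3′ side, so the peak nearest to the 3′ end scored highest on both days.

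Ier3, a stress-induced regulator of cell survival on chromosome 17 from 35821713 to 35822911, had its top peak from 35822317 to 35822614 on both days, with scores of 47.5 and 14.1. Atf3, a stress-induced partner of Jun proteins on chromosome 1 from 191170296 to 191183333 (minus strand), had peaks of low score near its 3′ end. These scored 5.29 and 6.11 at day 0, and 1 peak was left at day 4, with 5.99. Fosl1 had 1 short peak of 50 bases at day 0, from 5447795 to 5447844, close to its 5′ end (score 8.66). No peak was listed in Fosl1 at day 4, when its level was also lower, and a change in methylation and a change in level cannot be told apart from a listing.

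Fos had its peaks in the 3′ part of the gene on both days. They ran from 85475658 to 85476373 (score 18.2) and from 85476523 to 85476821 (score 20.9) at day 0. At day 4 the peaks were shorter, from 85475875 to 85476373 (score 13.3) and from 85476523 to 85476722 (score 12.8). Neither stretch was listed as differentially methylated.

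**Figure D3:**
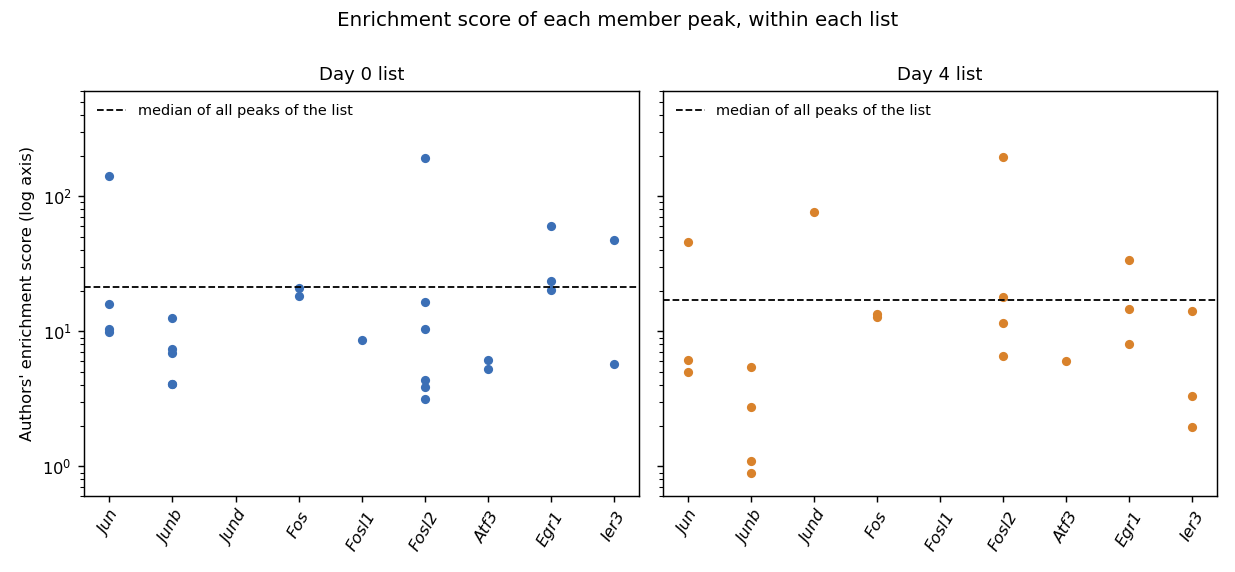
The authors' enrichment score (log axis) of every peak of the 9 members with a peak, at day 0 (left, 25 peaks) and day 4 (right, 21 peaks), with a dashed line at the median of all peaks of that list, 21.4 and 17.1. Fosl2 and Jun hold the highest day 0 points, and the lowest points at day 4 belong to Junb.

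The methylation comparison asks which sites gained or lost m6A between the days. In the authors' deposited table the members had 8 called sites in 5 genes (Jun, Junb, Jund, Fos and Ier3), and all 8 were gains at day 4, with 0 losses. The test behind them was not named in the sources, and the log base of the fold change is not stated. Of all sites tested, 6.96% were called and 4.79% were gains, and gains made up 68.8% of called sites. Among genes with a listed peak on either day, 17.2% held a called gain, and 5 of the 9 members with a peak did. At a false discovery rate under 0.01, 3.7% of all sites tested were called. That is 53.2% of the sites called at 0.05, and for the members it is 6 of 8. The number of reads behind each site is unknown, and its part in these counts was not tested. The median log fold change of the 8 sites was 2.04, beside 1.82 for all finite gains.

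Jund held the site with the smallest p-value of the whole methylation table. It ran from 70699972 to 70700269, beginning 2233 bases from the annotated 5′ end and stopping 347 bases short of the 3′ end. In the authors' deposited table it has a log fold change of 3.44 and a false discovery rate of 2.2e-130, and the next site, in Ier5l, has 2.4e-40. At day 0, when its level was also lower, no peak was listed in Jund. A change in methylation and a change in level cannot be told apart from a listing. How the unnamed test behind the site allows for level is unknown. At day 4 a peak from 70700071 to 70700219 lay inside the site, with a score of 75.9 (rank 2704 of 18423). The p-value of that peak was 3.1e-06, which placed it only 17074th in the day 4 list ordered from the smallest p. By p-value, unlike by score, the peak itself was thus weakly called where the difference between days was strongly called.

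Junb held 3 called gains, the most of any member, and 45 of the 2091 genes with a called site had at least 3 sites that were all gains. The site from 84977903 to 84978251 had, by the authors' deposited table, a log fold change of 1.92 (false discovery rate 1.5e-27), and the site from 84977207 to 84977604 had 2.14 (2.3e-25). They ranked 5 and 6 by p-value among the 2561 called sites. The next member sites ranked 67 (Fos), 145 (Ier3) and 200 (Jun). The Junb site nearest the 3′ end, from 84976959 to 84977157, was called closer to the limit, and the authors' deposited table gives it 1.14 (false discovery rate 0.0183).

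At day 0 Junb had 5 peaks with scores from 4.05 to 12.6. At day 4 it had 4 peaks with scores from 0.899 to 5.45. The peak from 84978351 to 84978450 had the lowest score of all 18423 day 4 peaks, with an unadjusted p of 0.887, and the peak from 84977108 to 84977157 had an unadjusted p of 0.212. They are 2 of the 18 day 4 peaks with an unadjusted p above 0.05. At all 3 called Junb sites the highest-scoring overlapping peak scored lower in the day 4 list. From the 5′ side to the 3′ side, day 0 first, the scores were 7.40 and 5.45, 12.6 and 2.76, and 4.06 and 1.11.

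Jun had 1 called gain, from 95051376 to 95051674, for which the authors' deposited table gives a log fold change of 1.94 (false discovery rate 6.6e-07). It lay over a minor peak, which scored 10.5 at day 0 and 5.04 at day 4, and not over the large peak toward the 3′ end. In Ier3 the authors' deposited table has a gain of 3.16 (false discovery rate 7.8e-08) from 35822812 to 35822861, which matched a peak that was listed at day 4 alone, 50 bases from the 3′ end, with a score of 1.95. A gain of 1.35 (false discovery rate 0.0202) began on the first annotated base of Ier3, both values as in the authors' deposited table. Of the 8 member gains, 5 overlapped peaks on both days, of which 3 were in Junb alone and the others in Jun and Ier3. In 5 of these 5 the highest day 4 score was below the highest day 0 score. Over all genes that was so for 41.6% of 825 such gains and for 88.9% of such losses. The lists share no stated scale, and whether the lower scores reflect less m6A at these called gains was not tested.

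**Figure D4:**
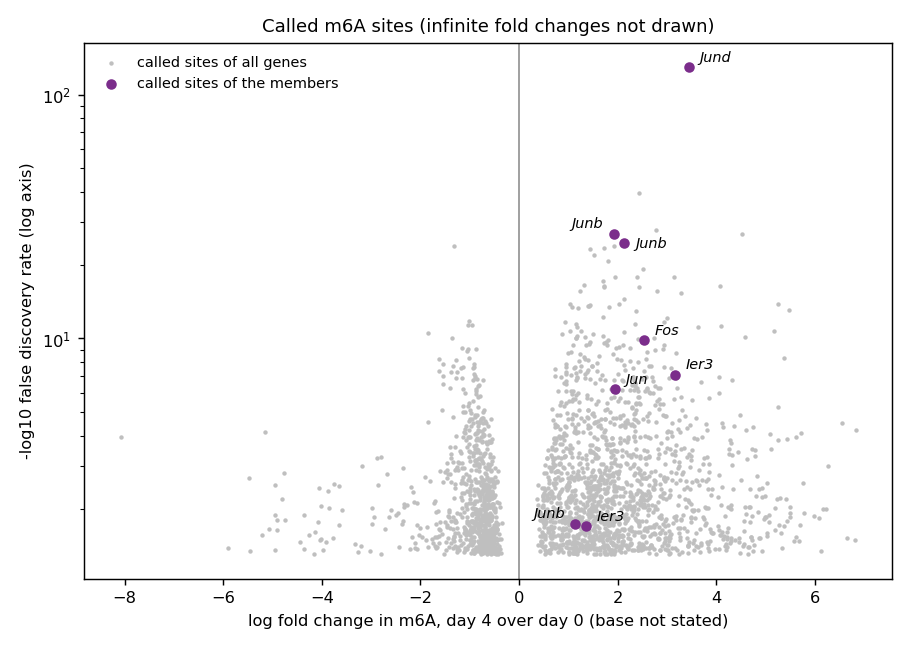
Log fold change in m6A (day 4 over day 0, base not stated) against the false discovery rate as -log10 on a log axis, for all called sites with a finite fold change (grey) and the 8 member sites (purple, named). All 8 stand to the right of 0, and Jund has the smallest false discovery rate of the table.

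Signal beginning within the first 50 annotated bases was listed in 3 members. Jun just missed that window, with a peak that began 50 bases from its 5′ end (score 15.9 at day 0 and 6.13 at day 4). Fosl2 had a peak on its first 50 annotated bases on both days (score 4.33 at day 0 and 11.5 at day 4). So did Ier3 at day 0 (score 5.68), extended to 100 bases at day 4 (score 3.30). These scores lay below the list medians, at ranks 18415 (Fosl2) and 17356 (Ier3) of 19920 at day 0. At day 4 the ranks were 11645 and 17518 of 18423. By the authors' deposited table, Fos had a called gain of 2.53 (false discovery rate 1.5e-10) from 85473901 to 85474000. That site begins 11 bases from the start of Fos and overlaps no listed peak of either day. Over all genes, 583 of 2561 called sites (22.8%) overlapped no listed peak, as did 1 of the 8 member sites. Peaks that began within the first 50 bases of a gene were 1.98% of peaks in RefSeq genes at day 0 and 2.55% at day 4, and 2 of 25 and 2 of 21 among the members. The sequences under the signals of Fos, Fosl2 and Ier3 are printed because they show what the antibody signal covers. Each has 30 bases, in DNA letters on the transcribed strand. Capitals mark AGAC or GGAC, searched on that strand alone as the cores of the usual m6A motif.
Fos, chr12:85473901-85473930, plus strand, within the called gain: cagcgagcaactgagaAGACtggatagagc
Fosl2, chr5:32136472-32136501, plus strand, first bases: ggttccgcggagcttgcagagcagaaacga
Ier3, chr17:35821713-35821742, plus strand, first bases: taaattatgtgccactcgcgcaaccatctc
The Fos stretch holds AGAC at positions 28 to 31 of the transcript, and the other stretches hold neither core. Of all 32851 annotated starts, 17.4% hold AGAC and 18.9% hold GGAC in their first 50 bases. Antibodies to m6A also bind m6Am, a methylated base next to the cap of many mRNAs, and the part of m6Am in this 5′ signal was not tested.

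Expression and methylation calls met in both directions among the members. Jund and Junb had called m6A gains and higher levels, and Jun and Ier3 had gains with no listed change in level. Fos alone had a called gain and a lower level. Its site lay at the 5′ end, and the stretches under its peaks were not listed as changed. Like 22.8% of called sites over all genes, the Fos site overlapped no listed peak. Fosb had the largest change in level of the members and no listed peak or site, at a low mean. Of genes in the expression table, 59.5% held a day 0 peak and 55.8% a day 4 peak, and of the 5 listed members 3 did on each day.

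Related lists place these genes in their pathway, and their counts stand beside 27.1% higher and 26.4% lower among all genes tested. Of 14 other basic leucine zipper factors, 4 were higher, 4 lower and 6 not listed, with a median log2 fold change of -0.27 among those listed. In the authors' deposited table the stress factors Atf5 (-2.85, SE 0.14) and Atf4 (-1.63, SE 0.10) and the AP-1 repressor Jdp2 (-2.12, SE 0.11) fell, whereas Maf (2.12, SE 0.23) and Maff (1.06, SE 0.17) rose. Jdp2 had 1 peak on each day and a called gain, which the authors' deposited table puts at 0.49 (false discovery rate 0.00675).

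Other immediate early genes were mostly higher where listed. Of 32, 15 were higher, 4 lower and 13 not listed, where 27.1% of all genes tested were higher and 26.4% lower. The median log2 fold change of those listed was 0.87, beside 0.26 for all listed genes. Among the higher genes Egr3 (mean 7.39) and Nr4a2 (mean 31.2) had low means, with DESeq2 adjusted p of 0.039 and 0.048. The coactivator-binding Cited2 (2.75, SE 0.11), Ier5 (2.35, SE 0.10), the kinase Sgk1 (2.28, SE 0.14) and the MAP kinase phosphatase Dusp1 (1.88, SE 0.14) rose in the authors' deposited table. Ier2 (-0.85, SE 0.17) and Myc (-0.83, SE 0.11) fell there. Called m6A sites in this list were 25 gains in 17 genes and 1 loss, in Ctgf. Peaks were listed in 25 of the 32 genes, and of all genes with a listed peak, 17.2% held a called gain. Over all genes, gains made up 68.8% of called sites.

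Upstream kinases and factors moved by small amounts where listed. Of 26, 9 were higher, 6 lower and 11 not listed, and the largest changes in the authors' deposited table were those of the cyclic AMP response factors Creb1 (-0.64, SE 0.13) and Crem (0.63, SE 0.19) and the serum response partner Elk1 (0.57, SE 0.15). Map2k2 (-0.53, SE 0.16), which encodes a MAP kinase kinase, Mapk3 (0.53, SE 0.08), which encodes a MAP kinase, and Elk3 (0.47, SE 0.12) changed less in the authors' deposited table. Proteins that bind AU-rich elements, through which many immediate early mRNAs are degraded, were higher for 2 of 8 genes, lower for 3 and not listed for 3. Zfp36l2 (-1.08, SE 0.10), Tial1 (-0.75, SE 0.11) and Elavl1 (-0.43, SE 0.13) fell and Zfp36l1 (0.93, SE 0.14) and Tia1 (0.37, SE 0.10) rose in the authors' deposited table.

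Epidermal genes known to carry AP-1 sites were higher for 15 of 25 genes, lower for 6 and not listed for 4. Of all genes tested, 27.1% were higher and 26.4% lower. The median log2 fold change of the listed genes was 1.06, beside 0.26 for all listed genes. Several of the higher genes had low means: Krt1, S100a9, Mmp3, Mmp9, Mmp10 and Mmp13, from 1.43 (Mmp9) to 31.1 (Mmp13). Among the lower genes Timp1 had a mean of 70.5. Involucrin, Ivl (3.67, SE 0.12), the protease Plau (1.59, SE 0.10) and the suprabasal keratin Krt10 (1.47, SE 0.15) rose in the authors' deposited table. The urokinase receptor Plaur (-2.11, SE 0.17), Vegfa (-1.02, SE 0.08) and Sprr3 (-0.79, SE 0.18) fell there. Genes of this list have many regulators, and binding of AP-1 to them was not measured.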

How the data were processed

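Input and anti-m6A libraries were made from day 0 and day 4 keratinocytes, per the labels. The submitters' processing notes name HISAT2 2.1.0, DESeq2 1.18.1 and mm10. The peak caller and methylation test were not named in those notes. The authors' files give, per the file headers, an enrichment score and a p-value per peak. For expression, the authors deposited the mean normalized count (a signal averaged over libraries), a log2 fold change with its SE and test statistic (a score), and an adjusted p-value. For methylation they give a log fold change, treated as a score, and a false discovery rate, per the file headers. Both comparison tables list only values under 0.05. Day 4 over day 0 was read as positive because 93.8% of listed genes with peaks at day 4 only were positive against 4.02% at day 0 only. For called sites on peaks of a single day, the shares were 98.8% at day 4 and 24.4% at day 0.

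From these, 95% intervals (1.96 SE), day means implied by the mean and fold change, ranks within a list, distances to RefSeq gene ends and same-strand overlaps were computed in Python 3.11.15 with pandas 2.3.3. Numbers tested (14924 genes, 36796 sites) were derived from the adjustment itself, with code tested on simulated data. Promoter sequences were found for 8 of 10 members. All members are described, and from each of 5 related lists up to 4 listed genes with the largest change at a mean of at least 100, plus up to 2 going the other way. A result that this rule names is not reported here. Members and lists were chosen with earlier results of these data known. Alternatives were stricter p-values, a 2-fold change, a mean of at least 100, other overlaps, and sites on peaks only.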

Additional observations from a re-analysis of the deposited data

How the results depend on the processing

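When only changes of at least 2-fold counted, 3 members remained called in place of 5, and 1 was higher (Fosb) in place of 3, because Jund and Junb changed less than that. Junb was also lost at an adjusted p under 0.01, and Fosb when the mean normalized count had to reach 100. The other counts of members, peaks, shared peaks and gains stayed within 1.5 times their value. Each alternative could only take entries away, so the number of losses, 0 at the main setting, could not change. At a false discovery rate under 0.01 the gains were 6, without the 3′ site of Junb and the 5′ site of Ier3. Keeping only sites on a listed peak left 7 gains, without that of Fos. No paired analysis was possible because the files hold no value per library. Leaving out replicates was not run for the same reason, so whether 1 library decides a value, and how depth limits each call, was not tested.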

Other observations

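Some genes of the related lists, chosen after their values were seen, had several m6A gains without a loss. Cited2 had 4 called gains and rose in level, and Rhob, a small GTPase gene of the immediate early list that was not listed as changed in level, had 3. Of the 2091 genes with a called site, 66 had at least 3 sites, and in 45 of them all were gains. Sprr1b, a cornified envelope precursor with a known AP-1 site, held the site ranked 4 by p-value, with a log fold change that the authors' deposited table puts at 4.52. Of the 2 gains in Dusp1, the authors' deposited table puts 1 at 5.71 and the other at 0.93.

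Atf5 had 4 peaks at day 0 and 0 at day 4, and fell in level, yet its 3 called sites were all gains in the authors' deposited table. That table gives log fold changes of 1.90 and 4.94, and an infinite value at the site from 44815517 to 44815566.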
